A study of Mus musculus with 8 samples.

Results

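A set of 48 mouse genes of the cell division cycle, named by symbol, was followed through sorted kidney endothelium and podocytes that carried or lacked Emcn, the gene of endomucin, a sialomucin of the endothelial surface. The members ran from the D-type cyclins through origin licensing and DNA synthesis to mitosis, and were taken from the gene lines that held all 8 counts. Of the 48, 45 lay among the 17326 complete lines and were analysed, and all 45 passed the low-count filter. Bub1, Bub1b and Tpx2 lay on incomplete lines and were not analysed here. The cells came from mouse kidneys and were separated by fluorescence-activated sorting, and their polyadenylated RNA was sequenced from TruSeq libraries. The groups were endothelium of genotype EMCN+/+ (wild type), endothelium of genotype EMCN-/- (knockout), podocytes of genotype EMCN+/+ and podocytes of genotype EMCN-/-, with 2 libraries each, numbered 2 and 3. The labels named no treatment, age, sort marker or Cre line for any group. They did not say whether the libraries of a group came from separate mice, so the p-values measure only the spread between these samples, which may be technical.

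A cell enters the division cycle when D-type cyclins with Cdk4 or Cdk6 phosphorylate the retinoblastoma proteins and free E2F factors, which switch on the genes of DNA replication. The minichromosome maintenance (MCM) helicase is loaded on origins in G1, and mitosis is then driven by Cdk1 with its A- and B-type cyclins, whose genes are switched on late in the cycle. Podocytes, the epithelial cells that cover the glomerular capillaries, leave the cycle as they mature and are held out of it by inhibitors such as Cdkn1c (p57), while endothelium keeps the ability to divide. The comparisons below therefore address where transcripts of the cycle lay between a cell that does not divide and one that can, and whether loss of endomucin moved them.

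The libraries held 10478956 to 17386042 counts on the complete lines. Emcn itself stood at 1972 and 1828 CPM (counts scaled to a common library size with TMM, the trimmed mean of M-values) in wild-type endothelium and at 173 and 179 in knockout endothelium. In podocytes it stood at 74.1 and 35.9 CPM in wild type and at 5.59 and 4.94 in knockout. All 12 endothelial markers were higher in endothelium and all 9 measured podocyte markers higher in podocytes over both genotypes (edgeR adjusted p under 0.05), as the sort labels have it. Plvap was uneven between the knockout endothelial libraries, at 1070 CPM in replicate 2 and 68.6 in replicate 3, against 43.9 to 128 in podocytes. Wild-type endothelium replicate 3 stood apart on the second principal component, with a value of 84.8 where the other 7 libraries lay between -45.8 and 33.8, and it had the highest summed level of tubule markers, 15750 CPM against 2913 to 12770 elsewhere.

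The promoters of the members are shown first because the licensing and the mitosis genes of the set differ in the motifs they hold. Genes of mitosis are known to share a cell cycle genes homology region (CHR), at which the DREAM and MuvB complexes bind, and CCAAT boxes bound by NF-Y, while many genes of replication are known for E2F elements. RefSeq windows of 300 bases on GRCm38.p6, from 250 bases before a transcription start to 50 after it, were matched for 35 of the 45 members, with 38 windows. Of these windows, 30 started within 100 bases of the 5′ end of the GENCODE M21 gene. The windows of Cdc6, Mcm7, Cdk6, Pcna, Cenpa, E2f1 and 1 of the 2 of Ccnd3 started further inside, E2f1 at 466 bases, so its window did not cover its outermost start. The search took TTTGAA or TTCGAA for CHR, TTTGGCGC, TTTCCCGC, TTTCGCGC or TTTGCCGC for E2F, and CCAAT for NF-Y, on both strands. Matches of different motifs or of 1 motif were allowed to overlap, and TTCGAA, which reads alike on both strands, was counted once.

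Of all 32851 windows, 19.2% held a CHR match, 2.26% an E2F match and 37.4% a CCAAT box. Among the 18 windows of mitotic members 77.8% held a CHR match, 5.56% an E2F match and 88.9% a CCAAT box. Among the 9 windows of origin licensing members 33.3% held a CHR match, 66.7% an E2F match and 77.8% a CCAAT box. Outside those groups the pattern differed. The 3 windows of Pcna, Rrm1 and Rrm2 held no CHR and no E2F match and each held a CCAAT box. Of the 4 windows of the cyclin E, Cdk2 and E2F group 1 held a CHR match, 1 an E2F match and 2 a CCAAT box. The D-type cyclin and Cdk4/6 windows, 4 in number, held neither a CHR nor an E2F match. For every group and gene, an absent match says only that the letters searched are not in that window.

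**Figure D1:**
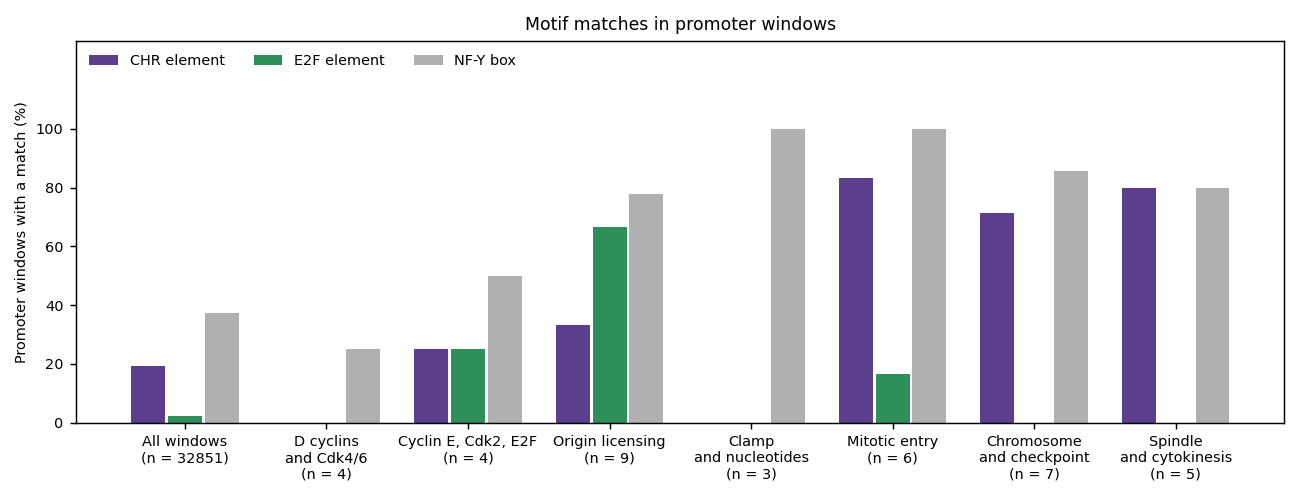
Share of RefSeq promoter windows (percent, vertical axis) with at least 1 match to the CHR, E2F or NF-Y motif, for all windows and for the 7 role groups of members, with the number of windows under each group. CHR matches stand at 71.4% to 83.3% in the 3 mitotic groups against 19.2% of all windows, and E2F matches at 66.7% in origin licensing against 2.26%, while the clamp and nucleotide group has neither.

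Windows of 5 members of mitosis and 1 of licensing are printed, 5′ to 3′ on the strand of the gene. Each of these genes was higher in endothelium over both genotypes (edgeR adjusted p under 0.05). A link between the motifs and that difference was not tested. Motif matches are in capitals and the rest is in lower case. Cdk1 (chr10:69352863-69353162, minus strand) held CHR matches whose first bases were at -71 and -15 from the start, an E2F match at -131 and 3 CCAAT boxes. Ccnb2 (chr9:70421505-70421804, minus strand) held CHR matches at -167 and 5, with CCAAT boxes at -87, -54 and -21. Cenpa (chr5:30666636-30666935, plus strand) held 1 CHR match at 17, and Mki67 (chr7:135716330-135716629, minus strand) held 2 CHR matches, at -116 and -98. Ccnb1 (chr13:100786437-100786736, minus strand) held 2 CCAAT boxes and none of the CHR letters searched. Mcm3 (chr1:20820263-20820562, minus strand) held E2F matches at 20 and 39 and 3 CCAAT boxes.
Cdk1: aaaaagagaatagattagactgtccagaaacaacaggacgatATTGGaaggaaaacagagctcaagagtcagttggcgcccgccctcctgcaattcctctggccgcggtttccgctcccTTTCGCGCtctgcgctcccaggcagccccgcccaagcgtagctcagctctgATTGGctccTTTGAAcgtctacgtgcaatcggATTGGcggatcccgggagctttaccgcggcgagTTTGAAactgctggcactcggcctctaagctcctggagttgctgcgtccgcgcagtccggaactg
Ccnb2: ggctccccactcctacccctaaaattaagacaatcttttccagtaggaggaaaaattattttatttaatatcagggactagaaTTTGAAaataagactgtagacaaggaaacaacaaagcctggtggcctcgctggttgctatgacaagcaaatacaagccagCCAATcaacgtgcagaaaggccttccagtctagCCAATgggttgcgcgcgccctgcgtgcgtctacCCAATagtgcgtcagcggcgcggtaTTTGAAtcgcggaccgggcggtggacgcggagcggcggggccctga
Cenpa: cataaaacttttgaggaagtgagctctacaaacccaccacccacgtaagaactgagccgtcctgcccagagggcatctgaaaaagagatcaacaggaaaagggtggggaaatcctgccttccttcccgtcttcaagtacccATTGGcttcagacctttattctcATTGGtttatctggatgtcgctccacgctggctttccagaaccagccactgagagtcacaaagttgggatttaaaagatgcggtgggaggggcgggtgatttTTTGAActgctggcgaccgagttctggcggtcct
Mki67: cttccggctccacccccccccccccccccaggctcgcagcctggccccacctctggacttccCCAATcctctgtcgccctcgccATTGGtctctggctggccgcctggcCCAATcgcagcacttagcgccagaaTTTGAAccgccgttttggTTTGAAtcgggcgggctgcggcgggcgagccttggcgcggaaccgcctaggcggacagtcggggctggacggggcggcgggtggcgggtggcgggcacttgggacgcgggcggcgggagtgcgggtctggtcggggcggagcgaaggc
Ccnb1: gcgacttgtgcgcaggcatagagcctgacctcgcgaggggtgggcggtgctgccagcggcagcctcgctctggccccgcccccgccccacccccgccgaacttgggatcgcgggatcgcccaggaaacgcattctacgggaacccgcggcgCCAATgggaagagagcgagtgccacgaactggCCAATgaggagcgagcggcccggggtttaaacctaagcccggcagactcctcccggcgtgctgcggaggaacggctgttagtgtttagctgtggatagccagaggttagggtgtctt
Mcm3: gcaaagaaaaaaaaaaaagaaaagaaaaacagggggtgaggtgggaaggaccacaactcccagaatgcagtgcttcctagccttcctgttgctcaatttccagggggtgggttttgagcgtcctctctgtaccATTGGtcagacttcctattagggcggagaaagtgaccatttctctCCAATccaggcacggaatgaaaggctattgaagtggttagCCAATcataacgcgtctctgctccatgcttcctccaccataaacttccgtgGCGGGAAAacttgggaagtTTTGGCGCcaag

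Over both genotypes 20 of the 45 members differed between endothelium and podocytes (edgeR adjusted p under 0.05), beside 18.3% of all 16477 genes tested. Of these, 18 were higher in endothelium, where 7.19% of all genes were, and 2 were higher in podocytes, where 11.1% of all genes were. The 2 were E2f1 and Cdk6. DESeq2 called 24 members, 22 higher and 2 lower in endothelium, beside 20.2% of all genes. The median log2 fold change of endothelium over podocytes was 0.91 across the members and 0.00 across all genes. By role, 2 of 5 D-type cyclin and Cdk4/6 genes, 7 of 9 mitotic entry genes, 5 of 8 chromosome and checkpoint genes and 2 of 5 spindle and cytokinesis genes were higher in endothelium, against 1 of 10 licensing genes, 1 of 3 genes of the clamp and nucleotide supply and 0 of 5 genes of the cyclin E, Cdk2 and E2F group (DESeq2 called 1 of these 5, beside 8.79% of all genes it called higher in endothelium). Without wild-type podocyte replicate 2 the count of members was 11, and without knockout endothelium replicate 2 it was 13. In 19 members every endothelial library lay above every podocyte library, beside 9.59% of all genes, and in Cdk6 and E2f1 every podocyte library lay above, beside 12.3% of all genes. Scaled by library size alone, the median of all genes moved to 0.17, with 1288 genes higher and 1059 lower in endothelium in place of 1184 and 1836, while 19 members passed. Fewer dividing cells and less of a transcript per cell cannot be told apart in such bulk libraries.

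**Figure D2:**
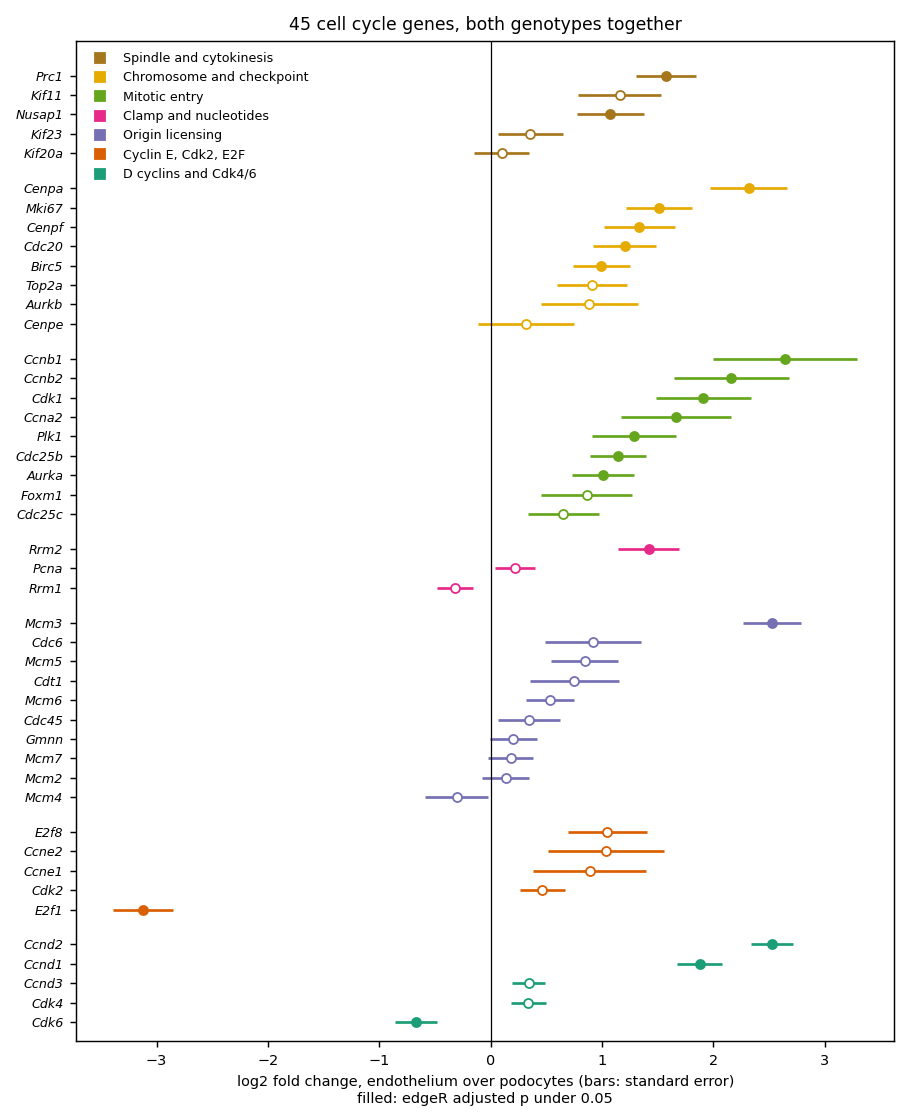
log2 fold change of endothelium over podocytes for the 45 measured members (horizontal axis), both genotypes together, grouped and coloured by role, with bars of 1 standard error. Filled points pass an edgeR adjusted p of 0.05; the mitotic groups in the upper part lie right of 0, and E2f1 at -3.12 is the member farthest to the left.

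The D-type cyclins split by gene. Ccnd1 (chr7:144929931-144939925), the cyclin most often induced by growth factors, stood at 186 and 236 CPM in wild-type endothelium, 196 and 183 in the knockout, and at 39.8 and 49.7 in wild-type podocytes, 48.5 and 83.5 in the knockout. Ccnd2 (chr6:127125162-127152193) stood at 167 and 178 CPM in wild-type endothelium, 225 and 194 in the knockout, and at 20.6 and 32.8 in wild-type podocytes, 38.7 and 43.1 in the knockout. No podocyte library reached an endothelial one for either gene. The endothelial level of Ccnd1 exceeded the podocyte level by 1.88 on the log2 scale (SE 0.20, edgeR adjusted p = 8.8e-05) and Ccnd2 by 2.53 (SE 0.19, edgeR adjusted p = 7.1e-06). Both also passed within wild type, at 2.24 and 2.69, and within knockout, at 1.52 and 2.36. Ccnd3, the third D-type cyclin, stood at 266, 304, 231 and 230 CPM in the endothelial libraries and at 222, 217, 198 and 175 in the podocyte libraries, wild-type replicates 2 and 3 first and knockout replicates 2 and 3 last, the order kept in every such list of 4 values. Its libraries did not overlap between the cell types, but the difference of 0.34 (SE 0.15, edgeR adjusted p = 0.149) did not pass.

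Per kilobase of exon Ccnd3 was the leading D-type cyclin in both cell types, at 105 CPM per kilobase in endothelium and 82.9 in podocytes. Ccnd1 followed at 53.5 and 14.8 and Ccnd2 at 28.5 and 5.04. Their partner kinase Cdk4 stood at 65.0 and 51.6 CPM per kilobase, and Cdk6 at 1.54 and 2.44. Cdk4 ranged from 124 to 144 CPM in endothelium and from 83.3 to 127 in podocytes, with a difference of 0.34 on the log2 scale (SE 0.16, edgeR adjusted p = 0.18). Cdk6 stood at 18.1, 13.4, 20.8 and 18.8 CPM in endothelium and at 24.8, 30.9, 29.1 and 27.7 in podocytes, so that all 4 podocyte libraries were above all 4 endothelial ones. It was lower in endothelium, with a log2 fold change of -0.67 (SE 0.19, edgeR adjusted p = 0.033), and kept that call in 2 of the 8 fits that left out 1 library; scaled by library size alone its value was -0.49 and did not pass.

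In the switch into S phase 1 gene stood against the rest. E2f1 (chr2:154559407-154569892), the activator E2F that both drives S-phase genes and can trigger apoptosis, stood at 15.8 and 9.48 CPM in wild-type endothelium, 7.61 and 10.6 in the knockout. In podocytes it stood at 154 and 91.6 CPM in wild type and at 55.6 and 86.1 in knockout. Its lowest podocyte library lay above its highest endothelial library, and it was lower in endothelium by a log2 fold change of -3.12 (SE 0.27, edgeR adjusted p = 1.8e-05), -3.28 within wild type and -2.96 within knockout. Per kilobase of exon it stood at 3.45 CPM in endothelium and 30.7 in podocytes. Endothelium held 11.2% of the podocyte level of E2f1, and the 9 podocyte markers stood in endothelium at 7.21% to 31.2% of their podocyte levels, with a median of 10.2%. Across the podocyte libraries E2f1 had the order of the summed podocyte markers, with wild-type replicate 2 highest (20264 CPM of markers), then wild-type replicate 3 (13267), knockout replicate 3 (11784) and knockout replicate 2 (9418). The part of podocyte content in the E2f1 values was not tested. The gene shares 7 bases with the neighbouring Necab3, which stood at 2.10 to 7.67 CPM in endothelium and 15.5 to 35.6 in podocytes, and the use of strand in counting is not given in the sources used here. In all, the spans of 21 of the 45 members overlap another annotated gene, and reads from the shared bases could not be told apart. For 13 of them a partner was counted, and Ccna2, Ccne2, Cdc45, Cdk4 and Kif20a stood below a partner in every library.

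The other 4 genes of that group leaned the other way without passing. Ccne1, the cyclin E that activates Cdk2, stood at 2.13, 1.88, 3.38 and 1.12 CPM in endothelium and 1.04, 0.58, 1.68 and 1.55 in podocytes, with a difference of 0.89 (SE 0.51, edgeR adjusted p = 0.278). Ccne2 differed by 1.04, Cdk2 by 0.47 and E2f8, a repressive E2F, by 1.05 on the log2 scale, with edgeR adjusted p between 0.0704 and 0.218. Ccne2 shares 5622 bases with Ints8, which stood at 36.3 to 55.5 CPM in endothelium and 37.7 to 64.4 in podocytes, above Ccne2 in every library. Cdk2 lies inside the span of Pmel, so its reads could not be told from those of that gene.

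Among the 10 licensing genes only Mcm3 passed. Mcm3 (chr1:20802968-20820312), a subunit of the hexameric MCM helicase, stood at 76.7 and 69.6 CPM in wild-type endothelium, 91.7 and 75.0 in the knockout. In podocytes it stood at 19.8 and 8.20 CPM in wild type and 13.4 and 12.7 in knockout. The groups were far apart, with a difference of 2.53 on the log2 scale (SE 0.26, edgeR adjusted p = 6.0e-05), 2.38 within wild type and 2.67 within knockout. The other 5 subunits of the same ring did not pass: Mcm2 differed by 0.13 (SE 0.21, edgeR adjusted p = 0.733), Mcm4 by -0.31, Mcm5 by 0.84, Mcm6 by 0.53 and Mcm7 by 0.18. Mcm2 stood at 20.7, 28.0, 21.7 and 22.8 CPM in endothelium and at 19.5, 18.4, 29.0 and 18.5 in podocytes, so its libraries overlapped. Per kilobase of exon Mcm3 stood at 25.8 CPM in endothelium, above the 6.92 to 10.5 of the other 5 subunits, and at 4.46 in podocytes, below their 5.71 to 13.0. Mcm3 shares no bases with another RefSeq gene.

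**Figure D3:**
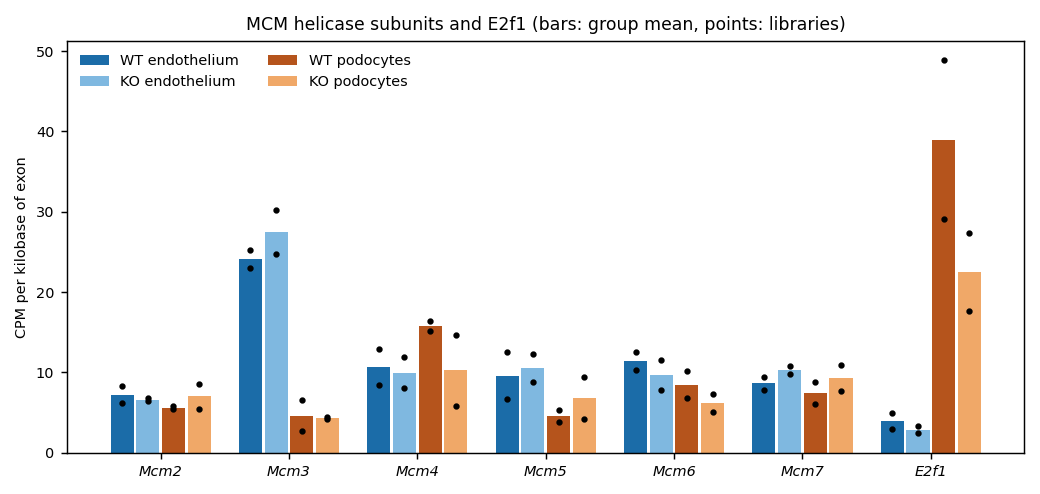
CPM per kilobase of exon (vertical axis, from 0) for the 6 MCM helicase subunits and E2f1, with bars for the mean of each group of 2 libraries and points for the libraries. Mcm3 is the subunit whose endothelial bars, near 24.1 and 27.5, stand clear of its podocyte bars at 4.61 and 4.31, and E2f1 shows the opposite order.

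The loaders and their inhibitor gave smaller values. Cdc6, which loads the MCM ring, stood at 2.58, 2.39, 7.40 and 5.25 CPM in endothelium and 1.69, 1.74, 1.24 and 3.91 in podocytes, with a difference of 0.92 (SE 0.43, edgeR adjusted p = 0.18). Cdt1, its partner, differed by 0.75, Gmnn, which inhibits Cdt1, by 0.20, and Cdc45, a part of the active helicase, by 0.35, none of which passed. Gmnn was the leading member of these 4 per kilobase of exon, at 18.6 CPM in endothelium and 16.1 in podocytes.

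Of the clamp and the nucleotide supply, Rrm2 passed. Rrm2, the subunit of ribonucleotide reductase that is made in S phase, stood at 19.5 and 12.2 CPM in wild-type endothelium, 12.6 and 18.7 in the knockout, and at 6.81 and 6.24 in wild-type podocytes, 4.47 and 6.12 in the knockout. Its endothelial level was above the podocyte level by 1.42 (SE 0.27, edgeR adjusted p = 0.0042), and within knockout by 1.56. Its partner subunit Rrm1 ran the other way without passing, at -0.32, with 61.9 to 80.2 CPM in endothelium and 63.4 to 101 in podocytes. Pcna, the sliding clamp of the replication fork, stood at 39.1, 52.3, 42.9 and 41.0 CPM in endothelium and 49.5, 36.7, 35.2 and 30.5 in podocytes, a difference of 0.22 (SE 0.18, edgeR adjusted p = 0.465).

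The genes of mitotic entry gave the largest share of calls. Cdk1 (chr10:69335146-69352938), the kinase of mitosis, stood at 9.65 and 8.69 CPM in wild-type endothelium, 13.5 and 16.8 in the knockout, and at 0.78 and 3.05 in wild-type podocytes, 3.11 and 7.23 in the knockout. Ccnb2, a B-type cyclin, stood at 8.66, 7.74, 10.2 and 11.6 CPM in endothelium and at 0.91, 2.03, 0.81 and 5.31 in podocytes. Ccna2, the cyclin of S phase and G2, stood at 8.97, 3.91, 9.17 and 9.46 CPM in endothelium and at 1.30, 1.89, 1.24 and 6.27 in podocytes. Cdk1 and Ccnb2 kept every endothelial library above every podocyte one, while knockout podocyte replicate 3 lay above wild-type endothelium replicate 3 for Ccna2. The differences were 1.91 (SE 0.43, edgeR adjusted p = 0.0098) for Cdk1, 2.16 (SE 0.52, edgeR adjusted p = 0.014) for Ccnb2 and 1.66 (SE 0.50, edgeR adjusted p = 0.041) for Ccna2. Ccna2 shares 863 bases with Exosc9, which stood at 45.5 to 52.3 CPM in endothelium and 40.9 to 52.5 in podocytes, ranges that overlapped.

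Ccnb1 (chr13:100778650-100786570), the other B-type cyclin, had the widest ratio of highest to lowest podocyte library among the members. It stood at 4.71 and 3.04 CPM in wild-type endothelium, 3.74 and 3.70 in the knockout, and at 0.065 and 0.22 in wild-type podocytes, 0.68 and 4.35 in the knockout. Wild-type podocytes held 1 and 3 counts of it and knockout podocytes 11 and 59, so knockout replicate 3 alone reached the endothelial range. Over both genotypes its endothelial level lay above by 2.65 (SE 0.65, edgeR adjusted p = 0.016), and within wild type by 4.72 (SE 1.02, edgeR adjusted p = 0.014). From the summed counts, wild-type endothelium held 28.1 times the wild-type podocyte level, with a 95% exact interval of 10.7 to 105 that covers counting error only.

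Cdc25b, a phosphatase that activates Cdk1, stood at 41.1, 34.9, 38.1 and 32.6 CPM in endothelium and 11.7, 19.2, 12.2 and 23.5 in podocytes, a difference of 1.15 (SE 0.25, edgeR adjusted p = 0.0089). Plk1, the polo-like kinase of mitotic entry, stood at 5.09, 3.91, 6.13 and 5.51 CPM in endothelium and 1.36, 2.03, 1.74 and 3.47 in podocytes, a difference of 1.28 (SE 0.38, edgeR adjusted p = 0.038). Aurka, the centrosome kinase, stood at 8.21, 7.31, 9.38 and 8.86 CPM in endothelium and 4.02, 4.14, 3.48 and 5.09 in podocytes, a difference of 1.01 (SE 0.28, edgeR adjusted p = 0.030). In all 3 genes the cell types did not overlap, although Plk1 and Aurka each passed in only 1 of the 8 fits with 1 library left out. Other calls over both genotypes were also lost in some of those fits: Ccna2 and Nusap1 passed in 2 of 8, Birc5 in 3, Cdc20 and Cenpf in 5, and Ccnb1 and Ccnb2 in 7. Foxm1, the transcription factor of the mitotic programme, differed by 0.86 and did not pass. Cdc25c stood at 10.4, 6.59, 15.7 and 17.0 CPM in endothelium and 4.47, 7.48, 6.03 and 12.8 in podocytes, with a difference of 0.65 (SE 0.32, edgeR adjusted p = 0.203).

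**Figure D4:**
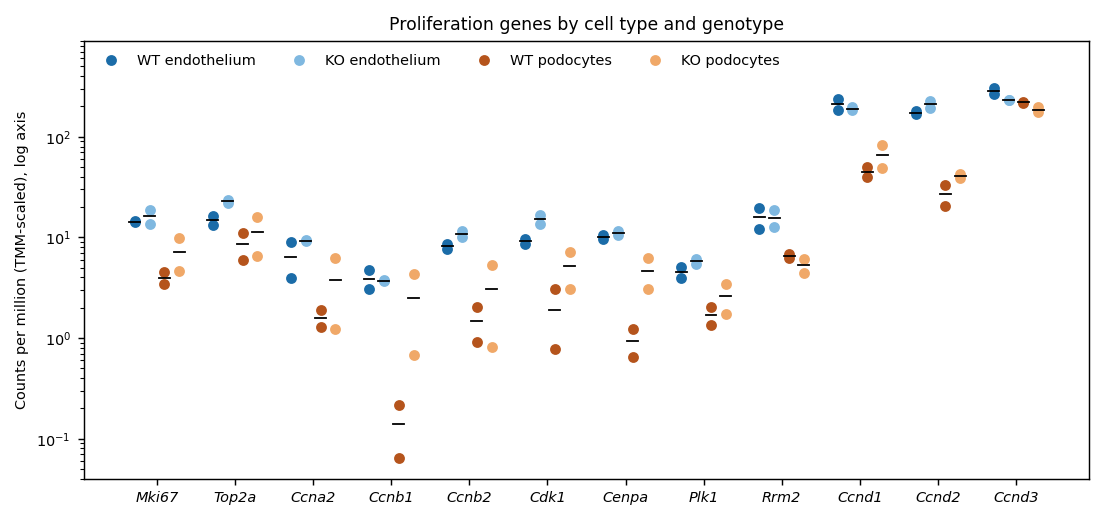
TMM-scaled CPM (vertical log axis) of 12 members in the 8 libraries, with points for libraries, coloured by group, and short lines for group means. The mitotic genes and Ccnd1 and Ccnd2 have lower means in podocytes, although libraries of Top2a, Ccna2 and Ccnb1 overlap between the cell types. Ccnd3 lies between 175 and 304 CPM in all libraries, and Ccnb1 spans 0.065 to 4.35 CPM within podocytes.

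Of the chromosome and checkpoint genes, Cenpa (chr5:30666777-30674830), the histone variant of centromeres, stood at 10.6 and 9.55 CPM in wild-type endothelium, 10.5 and 11.6 in the knockout. In podocytes it stood at 1.23 and 0.65 CPM in wild type and 6.21 and 3.10 in knockout. Mki67 (chr7:135689784-135716361), which coats mitotic chromosomes and is the usual label of cycling cells, stood at 14.1, 14.6, 18.8 and 13.5 CPM in endothelium and 3.43, 4.50, 4.60 and 9.81 in podocytes. All 4 podocyte libraries were below all 4 endothelial ones for both genes. Endothelium exceeded podocytes by 2.32 for Cenpa (SE 0.35, edgeR adjusted p = 0.00084) and by 1.51 for Mki67 (SE 0.30, edgeR adjusted p = 0.0050), and both passed within wild type, at 3.39 and 1.86.

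The rest of this group followed with smaller differences. Cenpf, a kinetochore protein, stood at 6.53, 5.79, 7.54 and 8.17 CPM in endothelium and 1.69, 2.54, 2.98 and 4.20 in podocytes (1.34, SE 0.32, edgeR adjusted p = 0.014). Cdc20, an activator of the anaphase-promoting complex, stood at 20.1, 11.4, 18.0 and 14.1 CPM in endothelium and 7.65, 4.57, 8.20 and 7.30 in podocytes (1.21, SE 0.28, edgeR adjusted p = 0.013). Birc5 (survivin), of the chromosomal passenger complex, stood at 11.3, 11.1, 18.7 and 12.0 CPM in endothelium and 5.57, 7.19, 6.65 and 6.93 in podocytes (0.995, SE 0.26, edgeR adjusted p = 0.020). These 3 genes did not overlap between the cell types. Top2a, the topoisomerase that disentangles sister chromatids, stood at 16.4, 13.4, 22.0 and 23.6 CPM in endothelium and 11.1, 5.95, 6.59 and 16.0 in podocytes, and its difference of 0.91 (SE 0.31, edgeR adjusted p = 0.074) did not pass, though it did with DESeq2. Aurkb, the kinase of that complex, at 0.88, and Cenpe, a kinetochore motor, at 0.32, did not pass either.

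Among the genes of the spindle and of cytokinesis, Prc1 (chr7:80294450-80316259), which bundles the central spindle, stood at 22.7, 18.3, 30.0 and 17.2 CPM in endothelium and 5.25, 6.61, 7.02 and 11.4 in podocytes. Nusap1, a spindle protein, stood at 10.7, 9.05, 13.1 and 11.4 CPM in endothelium and 3.76, 6.68, 4.04 and 6.42 in podocytes. Neither overlapped between cell types. Prc1 differed by 1.57 (SE 0.27, edgeR adjusted p = 0.0021) and passed within each genotype, and Nusap1 differed by 1.08 (SE 0.30, edgeR adjusted p = 0.029). The span of Prc1 overlaps that of Rccd1 over 21669 bases. Rccd1 stood at 7.37 to 10.3 CPM in endothelium and 7.30 to 15.2 in podocytes, ranges that overlapped. Kif23 stood at 5.93, 5.50, 11.4 and 9.63 CPM in endothelium and 5.25, 6.10, 4.47 and 8.48 in podocytes (0.36, SE 0.30, edgeR adjusted p = 0.474). The motors Kif11, at 1.16 with an edgeR adjusted p of 0.0548, and Kif20a, at 0.10, did not pass.

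Podocytes kept a measurable part of the mitotic transcripts. Summed over the 22 mitotic members, endothelium held 257, 202, 307 and 274 CPM and podocytes 88.6, 114, 112 and 177, so the podocyte mean was 47.3% of the endothelial mean. Per gene the podocyte level was a median of 44.6% of the endothelial one, from 23.7% for Ccnb2 to 92.2% for Kif20a. The 12 endothelial markers stood in podocytes at a median of 5.96% of their endothelial level. Markers of tubule (summed 5828 to 12770 CPM over 8 of 12 listed genes), mural (296 to 942 CPM, 6 of 10) and white blood cells (91.9 to 129 CPM, 10 of 18, most of it Csf1r) were also present in the podocyte libraries, and their part in the mitotic transcripts was not tested. In endothelium the same sums were 2913 to 15750, 303 to 657 and 38.3 to 67.6 CPM, and red cell precursor markers (3 of 9) summed to 5.64 to 27.5 CPM in all libraries, with Klf1 at 0 in knockout endothelium replicate 3. The higher white blood cell sum of podocytes came from Csf1r alone, at 67.9 to 107 CPM against 4.99 to 12.3. The other 9 markers had lower mean CPM in podocytes, and Lyz2, at 1.49 (SE 0.38, edgeR adjusted p = 0.020), and S100a9, at 1.13 (SE 0.32, edgeR adjusted p = 0.032), were higher in endothelium.

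Within wild type 10 members passed between the cell types, beside 8.99% of all genes. Higher in endothelium were Ccnd1, Ccnd2, Mcm3, Ccnb1, Cdk1, Cdc25b, Mki67, Cenpa and Prc1, and lower was E2f1. Within knockout 6 passed, beside 10.4% of all genes. Ccnd1, Ccnd2, Mcm3, Rrm2 and Prc1 were higher in endothelium and E2f1 was lower. DESeq2 called 15 within wild type, beside 11.0% of all genes, and 13 within knockout, beside 13.7%. The median of the members was 0.88 within wild type and 0.80 within knockout. Without knockout podocyte replicate 3 the count within knockout was 11, and without wild-type podocyte replicate 2 or wild-type endothelium replicate 2 the count within wild type was 5, and without wild-type podocyte replicate 3 it was 6.

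Loss of Emcn moved no member past the threshold in endothelium. In knockout against wild-type endothelium 0 of 45 members passed with edgeR, beside 0.00607% of all genes (1 of 16477), and 0 passed with DESeq2, beside 0.0607%. With edgeR 1 member and 905 of all genes had an unadjusted p under 0.05. Leaving out 1 library, with 16901 to 17113 genes then tested, moved these counts. All genes came to 323 without wild-type endothelium replicate 3, 563 without knockout endothelium replicate 2 and 2182 without wild-type endothelium replicate 2. Members came to 3 when knockout podocyte replicate 2 or 3 was left out, 1 without wild-type endothelium replicate 2 or wild-type podocyte replicate 2, and 0 without any of the other 4. With all libraries the 1 member was Cdc6, whose libraries above gave 1.35 (SE 0.60, unadjusted p = 0.0477, edgeR adjusted p = 0.716), with both knockout libraries above both wild-type ones. Next in order of p, Kif23 gave 0.88 (SE 0.42) and Cdc25c gave 0.95 (SE 0.45), each with an edgeR adjusted p of 0.716. Of the 45 members 32 had a positive log2 fold change, beside 8292 of 16477 genes, and the median was 0.20 against 0.01 for all genes. Both knockout libraries lay above both wild-type ones in 21 members, beside 24.8% of all genes, and below them in 1, Ccnd3, beside 19.7%. Wild-type endothelium replicate 3 was the lowest of the 4 endothelial libraries in 26 of 45 members, and in 38.3% of all genes. Without it the median of the members was 0.12, and it was 0.39 without wild-type endothelium replicate 2. Knockout endothelium replicate 2 was the highest of the 4 in 19 of 45 members, and in 29.1% of all genes. The median was 0.175 without it and 0.32 without knockout endothelium replicate 3. Mitochondrial genes took 26.2% of the counts of wild-type endothelium replicate 3 and 10.1% to 19.6% in the other 3 endothelial libraries, and their part in these values was not tested. The summed tubule markers stood at 7338 and 15750 CPM in the wild-type pair of these libraries and at 2913 and 6998 in the knockout pair. Both knockout sums were thus lower, by a gap smaller than the spread within each pair. Of the 8 tubule markers 3 had a positive value, the median was -0.79, 0 passed and 2 had an unadjusted p under 0.05 with edgeR. Their part in the members' values was not tested.

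The scaling matters for that median. With libraries scaled by size alone, without TMM, the median of all genes moved to 0.33 in the endothelial genotype comparison and that of the members to 0.54, a distance of the members from all genes close to that with TMM. The counts of positive values moved further, to 44 of 45 members (97.8%) and 12937 of 16477 genes (78.5%), against 71.1% and 50.3% with TMM. In podocytes the same scaling put the median of all genes at 0.13 and that of the members at 0.44, with 37 of 45 members and 10479 of 16477 genes positive. Between the cell types it put the median of all genes at 0.27 within knockout, and at 0.18 in the interaction.

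In podocytes 0 of 45 members passed with edgeR, beside 0.00607% of all genes, and 1 passed with DESeq2, beside 0.0728% (12 of the 16477 genes fitted). Unadjusted p was under 0.05 for 6 members and for 730 of all genes. The members came to 15 without knockout podocyte replicate 2, to 3 without knockout podocyte replicate 3 or wild-type podocyte replicate 2, and to 4 without knockout endothelium replicate 3. All genes came to 481 without wild-type podocyte replicate 2, 1198 without knockout podocyte replicate 2 and 1182 without wild-type podocyte replicate 3. Cenpa had the smallest, with the values given above and both knockout libraries above both wild-type ones, a log2 fold change of 2.29 (SE 0.51, unadjusted p = 0.00108, edgeR adjusted p = 0.978); DESeq2 gave 2.28 with an adjusted p of 0.0499. Ccnb1 gave 4.09 (SE 1.02, edgeR adjusted p = 0.978), which rests on 4 counts in wild type. Its summed counts gave a ratio of knockout to wild type of 17.2, with a 95% exact interval of 6.44 to 65.0 that covers counting error and not the spread between 11 and 59 counts. Ccnd2 gave 0.61 (SE 0.25, edgeR adjusted p = 0.978), with both knockout libraries above both wild-type ones. The other 3 were Cdk1 at 1.44, Foxm1 at 1.38 and E2f1 at -0.79.

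Of the 45 members 35 had a positive value in podocytes, beside 8593 of 16477 genes, and the median was 0.32 against 0.02 for all genes. The summed podocyte markers stood at 20264 and 13267 CPM in the wild-type podocyte libraries and at 9418 and 11784 in the knockout ones. Both knockout sums of these 9 markers were thus lower, by a gap smaller than the spread within each pair. All 9 had a negative value, with a median of -0.63, 0 passed and 1 had an unadjusted p under 0.05 with edgeR. Their part in the members' values was not tested. Both knockout libraries lay above both wild-type ones in 12 members, beside 15.1% of all genes, and below them in 6, beside 16.0%. The 6 were Ccnd3, E2f1, Mcm4, Pcna, Rrm1 and Rrm2. Knockout podocyte replicate 3 was the highest of the 4 podocyte libraries in 23 of 45 members, and in 30.8% of all genes. Without it 26 of 45 members had a positive value, beside 47.2% of all genes, and the median was 0.06 against -0.03 for all genes. Without wild-type podocyte replicate 2 the positive members were 28 of 45, beside 52.6% of all genes, and the median was 0.36 against 0.03. The mitochondrial share of knockout podocyte replicate 3 was 22.2%, against 12.2% to 16.9% in the other 3 podocyte libraries. Replicate 3 was above replicate 2 in this share in all 4 groups, and the part of this was not tested. Knockout podocyte replicate 3 had the lowest summed endothelial markers of the 4, 581 CPM against 689 to 894, with Ehd3 at 125 CPM against 193 to 307 and Plvap at 43.9 against 102 to 128. The 3 of the 12 markers that were highest in it were Pecam1, at 48.7 CPM against 30.0 to 45.8, Flt1, at 25.7 against 11.9 to 17.0, and Tie1, at 35.7 against 15.1 to 19.6. The summed mural markers of that library were also the lowest, at 296 CPM against 689 to 942, although Ren1, Rgs5 and Cspg4 were not lowest in it. The part of endothelial or mural content in the values of that library was not tested.

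**Figure D5:**
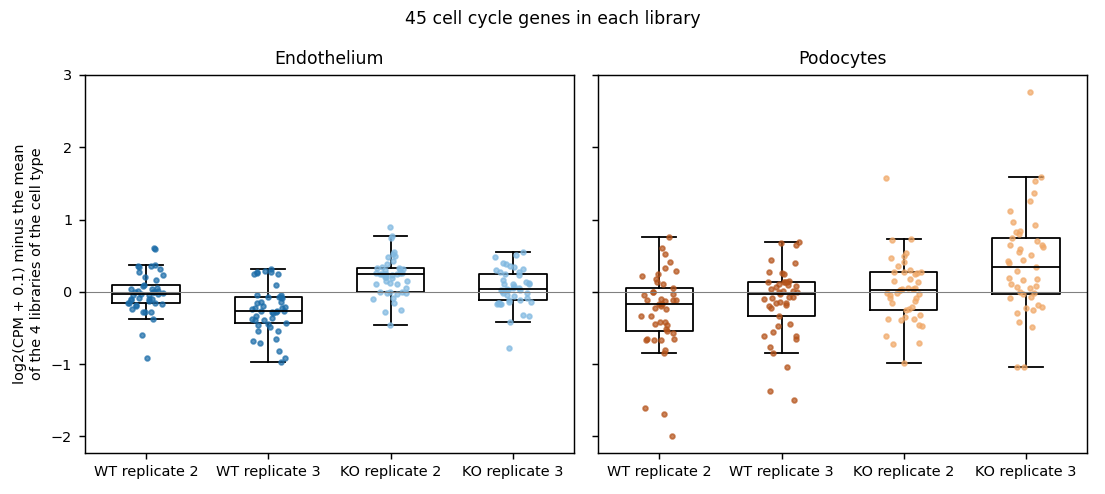
For each library, the log2(CPM + 0.1) of the 45 members minus the mean of the 4 libraries of the same cell type (vertical axis), with a point per gene and a box for the median and quartiles whose whiskers reach up to 1.5 times the interquartile range. Wild-type endothelium replicate 3 has the lowest endothelial median, -0.26, and knockout podocyte replicate 3 the highest podocyte median, 0.34.

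Whether the knockout acted unequally on the 2 cell types was tested as an interaction (effect in endothelium minus effect in podocytes). With edgeR 0 of 45 members passed, beside 0% of all genes, and DESeq2 also called 0 members and 0 of all genes. Unadjusted p was under 0.05 for 2 members and 428 of all genes. Ccnb1 gave -4.15 (SE 1.29), Cenpa -2.15 (SE 0.68) and Ccnd1 -0.71 (SE 0.39), each with an edgeR adjusted p of 1.0. No member was therefore shown to respond differently to the loss of Emcn in the 2 cell types at this depth and number of libraries.

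Genes of the cycle outside the set were read from further lists. Of 26 measured genes of DNA replication and S phase (44 listed), 3 were higher in endothelium over both genotypes and 0 lower, beside 7.19% and 11.1% of all genes, with a median of 0.30. Among them were Tyms, which makes thymidylate, at 0.69 (SE 0.20, edgeR adjusted p = 0.041), and Tipin, of the fork protection complex, at 0.55 (SE 0.17, edgeR adjusted p = 0.047). Of 50 measured genes of G2 and mitosis (60 listed), 12 were higher and 1 lower, beside the same shares of all genes, with a median of 0.68. The leading 4 by p were Pbk, a mitotic kinase, at 2.44 (SE 0.33), Ndc80, of the outer kinetochore, at 1.87 (SE 0.31), Ube2c, the ubiquitin-conjugating enzyme of the anaphase-promoting complex, at 3.20 (SE 0.59), and Kif20b, a kinesin, at 1.50 (SE 0.29). Wee1, which holds Cdk1 inactive, was the 1 lower gene, at -0.71 (SE 0.17, edgeR adjusted p = 0.012). DESeq2 called 4 higher and 0 lower among the S phase genes and 19 higher and 1 lower among the mitosis genes, beside 8.79% of all genes higher and 11.4% lower by that test. In these lists, as among the members, the median was higher for mitosis than for S phase, and that difference was not tested.

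Brakes on the cycle went both ways. Of 20 measured genes (22 listed), 2 were higher and 8 lower in endothelium, beside 7.19% and 11.1% of all genes, with a median of -0.31. Cdkn1c (p57), itself on the podocyte marker list, stood at 496, 125, 230 and 52.5 CPM in endothelium and 3696, 2770, 1444 and 2412 in podocytes, a difference of -3.58 (SE 0.54, edgeR adjusted p = 0.00084). Cdkn1a (p21), a target of p53, stood at 233, 280, 184 and 232 CPM in endothelium and 91.4, 78.4, 100.2 and 89.8 in podocytes, a difference of 1.36 (SE 0.16, edgeR adjusted p = 0.00017). The 2 inhibitors of the same family thus differed in opposite directions, with no overlap of libraries in either. Cdkn2c (p18), which inhibits Cdk4 and Cdk6, lay above in endothelium by 1.10 (SE 0.28, edgeR adjusted p = 0.018), at 9.45 to 13.1 CPM against 4.02 to 6.82. Cdkn1b (p27), at 0.50, Cdkn2b (p15), at -1.05, and Cdkn2d (p19), at 0.17, did not pass. Gas1, a growth-arrest gene, at -3.49 (SE 0.52), Gadd45a, a stress-response gene, at -2.35 (SE 0.22), and Tob1, an antiproliferative gene, at -1.59 (SE 0.15), were higher in podocytes. In knockout against wild-type endothelium 18 of the 20 brakes had a negative value (2 were positive, beside 50.3% of all genes), with a median of -0.42, and 0 passed with edgeR or DESeq2 (2 had an unadjusted p under 0.05 with edgeR). In podocytes 11 of the 20 had a negative value (9 were positive, beside 52.2% of all genes), with a median of -0.11 (-0.22 without knockout podocyte replicate 2 to 0.11 without knockout podocyte replicate 3), and 0 passed with edgeR or DESeq2 (0 had an unadjusted p under 0.05 with edgeR). The difference between the cell types in the brakes was not tested as a list. In endothelium, scaled by library size alone, 13 of the 20 were negative (7 were positive, beside 78.5% of all genes), the median of the brakes was -0.11 and that of all genes 0.33, against -0.42 and 0.01 with TMM. The lower tubule marker sums of both knockout endothelial libraries, given above, stand beside these values, and their part was not tested.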

How the data were processed

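RNA of 8 libraries, in 4 groups of 2 taken from the labels' genotype, cell type and title, was analysed from 1 table of read counts per gene that the authors deposited. The submitters' processing notes name mm10 and DESeq2; the aligner, the counting tool and the use of strand are not given in the sources used here. It had 22533 gene lines, of which 17326 were complete with a count for every library. On 5207 lines (23.11%) a comma inside the description had cost counts, and these genes were left out. On those lines 3 of the deposited columns held cells that were no counts, so these columns were recorded as other values for that reason alone; every value used was a whole-number count. No column lacked a sample (0).

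The deposited counts went into edgeR 4.0.16 (R 4.3.3), with filterByExpr by group (16477 genes), TMM scaling, 1 fit with 4 group means, the quasi-likelihood F test and Benjamini-Hochberg adjustment across every gene tested (threshold 0.05). SE stands for the absolute log2 fold change over the root of F. Replicates differed by more than counting error: of the genes with counts in a pair, 54.9% to 70% gave p under 0.05 in a test of counting error alone, so none was taken as a duplicate. Levels per kilobase used the union of exons in GENCODE M21, on the same assembly as mm10. The script was tested on simulated data.

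The members and lists were chosen with earlier results of these data known. Named were members that passed in any contrast, the 3 of smallest p in each genotype contrast and the interaction, and fixed representatives of each role; of other lists up to 4 passing genes per direction, and the CDK inhibitors. Others were chosen after their values were seen. The values of 1 gene of the S phase list are not reported here. Alternatives were DESeq2 1.42.0, other scalings, no filter, a replicate block and leaving out each library. The libraries held 10478956 to 17386042 counts; exact intervals cover counting error only.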

Additional observations from a re-analysis of the deposited data

How the results depend on the processing

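Over both genotypes, 20 members passed and 19 to 24 did under other scalings, DESeq2, no filter or the block, with all 20 kept except Cdk6 under library size alone. Leaving out 1 library gave 11 (without wild-type podocyte replicate 2) to 24 (without knockout podocyte replicate 3). Counts without wild-type endothelium replicate 2, knockout endothelium replicate 3 and knockout podocyte replicate 2 were 14 each, and 13 without knockout endothelium replicate 2. Ccnd1, Ccnd2, Mcm3, Rrm2, Cdk1, Cdc25b, Cenpa, Mki67, Prc1 and E2f1 passed in all 8 such fits. With 1 library left out, an arm of 1 is assumed to vary like the other groups. Members called ranged from 5 to 12 within wild type, 4 to 11 within knockout and 0 to 0 for each genotype comparison and the interaction. Genes called ranged from 769 to 1672 within wild type, 960 to 1809 within knockout, 2074 to 3278 over both, 0 to 1 for the genotype in endothelium and in podocytes, and 0 to 0 for the interaction. The members' medians ranged from 0.124 to 0.388 (genotype, endothelium), 0.059 to 0.468 (genotype, podocytes), -0.153 to 0.061 (interaction), 0.692 to 1.005 (cell type, wild type), 0.614 to 1.2 (knockout) and 0.71 to 1.153 (both). The value of Mcm2 between cell types ranged from -0.013 (without knockout podocyte replicate 3) to 0.309.

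With library size alone, 0 genes were called for the genotype in endothelium and 0 in podocytes, and the members' medians were 0.539 (genotype, endothelium), 0.155 (interaction) and 1.078 (cell type, knockout). The DESeq2 Wald test called 10 genes for the genotype in endothelium, 12 in podocytes with 1 member, and 13 members between cell types within knockout, beside 13.7% of all genes. The cause was not tested.

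The labels do not say that a replicate number marks a shared mouse. Deviations of same-numbered libraries correlated at 0.188 (endothelium), 0.157 (podocytes), -0.129 (wild type across cell types) and 0.111 (knockout across cell types). With the replicate number as a block, members called were 20 over both genotypes, 12 within wild type, 6 within knockout and 0 for the genotype. A block with the podocyte numbers swapped, chosen after seeing the data, called 0 genes for the genotype in endothelium, 0 in podocytes and 21 members over both.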

Other observations

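Regulators of the cycle's transcription and its ubiquitin ligases were read from 2 further lists, beside 7.19% of all genes higher and 11.1% lower in endothelium. Of 18 measured regulators (20 listed), 1 was higher in endothelium over both genotypes, Mybl1, a MYB family activator, at 1.83 (SE 0.43, edgeR adjusted p = 0.013). Lower in endothelium were 3, E2f5, a repressive E2F, at -1.33 (SE 0.24, edgeR adjusted p = 0.0026), Myc, at -1.07 (SE 0.24, edgeR adjusted p = 0.011), and Tfdp2, an E2F partner, at -0.74 (SE 0.20, edgeR adjusted p = 0.026). The median of the list was -0.15. Of 21 measured genes of the anaphase-promoting complex and SCF ligases (22 listed), 0 were higher and 3 lower in endothelium, Btrc at -0.85 (SE 0.16), Cdc23 at -0.57 (SE 0.15) and Skp1 at -0.58 (SE 0.17), with a median of -0.00, and DESeq2 gave the same counts, beside 8.79% and 11.4% of all genes. Cdc23 overlaps Kif20a, a member, over 4930 bases, and its counts (77.8 to 112 CPM in endothelium, 111 to 160 in podocytes) ran the other way from the mitotic members.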
